A study of Mus musculus with 8 samples.

Results

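The nuclear genes of oxidative phosphorylation were followed in single microglia of the mouse lumbar spinal cord before and after sciatic nerve injury. A gene was taken as a member by its symbol, when the symbol began with Ndufa, Ndufb, Ndufc, Ndufs, Ndufv, Cox4, Cox5, Cox6, Cox7, Cox8, Uqcr or Atp5, or was Sdha, Sdhb, Sdhc or Sdhd. The rule itself uses no measured value, but it was chosen with earlier results of these data known. Of the 27998 genes counted, 92 were members: 36 subunits of complex I, 4 of complex II, 8 of complex III, 18 of complex IV (several of them tissue isoforms), 15 of complex V, and 11 assembly factors and related genes that share the name stems. The 13 protein-coding genes of the mitochondrial genome (mt- genes) were read beside them.

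Single-cell RNA sequencing counted transcripts as UMIs (unique molecular identifiers, 1 per captured molecule) from the 3′ end of the RNA. Each of the 8 libraries was a group of its own. The 4 control libraries came from Cx3cr1-yfp-creER/+ mice, and the 4 A20 cKO libraries from Cx3cr1-yfp-creER/+ mice with Tnfaip3 fl/fl, Tnfaip3 being the gene of the ubiquitin-editing enzyme A20, an inhibitor of NF-κB signalling. For each genotype there was a naive library and 1 library each at day 1, day 2 and day 3 after bilateral transection of the sciatic nerve. All mice were on C57BL/6 and were young adults of both sexes. Per the study's methods, tamoxifen was given to induce the Cre, and the lumbar cords of 3 animals were pooled per library. Cre and YFP were both expressed from the Cx3cr1 locus, which marks microglia but also other cells of the macrophage lineage, and cells were sorted as YFP+. With 1 library per group there was no replicate, so no test of a condition was made, and every interval given below is a 95% interval for counting error only.

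Oxidative phosphorylation passes electrons from NADH and succinate along the inner mitochondrial membrane to oxygen and uses the resulting proton gradient to make ATP. Complex I takes electrons from NADH, complex II from succinate, complex III passes them to cytochrome c, complex IV hands them to oxygen, and complex V is the ATP synthase. Complexes I, III, IV and V are built from subunits of both the nuclear and the mitochondrial genome, whereas complex II is wholly nuclear. Microglia, the macrophages resident in brain and spinal cord, are known to change their balance of oxidative and glycolytic metabolism when they are activated.

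After removal of barcodes with fewer than 1000 UMIs, fewer than 500 genes or more than 10% mt- UMIs, 14626 of 14883 cells remained, between 558 and 3585 per library, with 1620481 to 15817426 UMIs per library and medians of 2780 to 4274 UMIs per cell. The 6 microglia markers (P2ry12, Tmem119, Csf1r, Cx3cr1, Fcrls and Sall1) were detected in every library, at summed levels between 4980.1 and 12960.3 CPM (UMIs per 1000000 UMIs of the library). The libraries fell on 2 sides. The 4 A20 cKO libraries and control day 3, called linked here, shared 256 cell barcodes in pairs against 45.6 at the median rate of all pairs, and pairs across the sides shared 98 against 129.8. The linked libraries also held more of other cells' RNA: 149 to 202 CPM of the 5 oligodendrocyte markers against 60.1 to 83.3 CPM in the other 3 libraries, 126 to 397 CPM of Ttr and 18.5 to 32.0 CPM of S100a8 and S100a9, all 3 at 0 in the others. Lymphocyte markers reached at most 0.274 CPM. Tnfaip3 itself was read at 6.83 to 25.3 CPM in the control libraries and 42.3 to 67.7 CPM in those labelled A20 cKO, and since tags at the 3′ end do not show whether the floxed part is present, this does not check the deletion, and A20 cKO is used as the label. Control day 3 against any other control library, and A20 cKO naive against control naive, therefore compare libraries from both sides. There condition and side cannot be told apart.

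Promoter sequences are shown for the members whose level varied least and most over the libraries, so that the letters at both ends of that range can be read beside the values. Among the 55 members with a mean of at least 100 CPM, the narrowest ranges were those of Ndufc2, Sdhb, Uqcrh and Sdha, and the widest those of Atp5e, Atp5k, Atp5g1 and Uqcr11. Each of the widest was lowest in A20 cKO naive and highest in control day 2, libraries that differ in genotype, day and side. The windows are RefSeq sequence on GRCm38.p6, from 130 bases before to 20 bases after the annotated start, 5′ to 3′ on the gene's strand. Capitals mark GCATGCGC, the core of the NRF1 site, CCGGAAG, the core of ETS-family sites such as those of GABPA (NRF2), AAGATGGC, the core of the YY1 site, and CCAAT, the NF-Y site, on either strand. Of the narrow members these are Ndufc2 (chr7:97399873-97400022, plus strand), Sdhb (chr4:140961141-140961290, plus strand), Uqcrh (chr4:116075051-116075200, minus strand) and Sdha (chr13:74350221-74350370, minus strand).
Ndufc2: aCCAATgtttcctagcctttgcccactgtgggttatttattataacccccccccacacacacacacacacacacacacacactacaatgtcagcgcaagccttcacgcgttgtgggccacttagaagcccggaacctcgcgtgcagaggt
Sdhb: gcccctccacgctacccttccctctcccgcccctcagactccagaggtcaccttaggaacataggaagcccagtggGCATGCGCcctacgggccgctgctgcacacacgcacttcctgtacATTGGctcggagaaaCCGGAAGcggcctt
Uqcrh: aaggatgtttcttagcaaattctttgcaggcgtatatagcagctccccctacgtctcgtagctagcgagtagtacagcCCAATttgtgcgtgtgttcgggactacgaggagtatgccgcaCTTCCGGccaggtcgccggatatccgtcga
Sdha: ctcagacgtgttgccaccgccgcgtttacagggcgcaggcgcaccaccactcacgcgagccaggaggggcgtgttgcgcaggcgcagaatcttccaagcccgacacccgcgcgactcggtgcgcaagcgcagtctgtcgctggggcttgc
Of the wide members these are Atp5e (chr2:174464082-174464231, minus strand), Atp5k (chr5:108434380-108434529, minus strand), Atp5g1 (chr11:96075612-96075761, minus strand) and Uqcr11 (chr10:80406802-80406951, minus strand).
Atp5e: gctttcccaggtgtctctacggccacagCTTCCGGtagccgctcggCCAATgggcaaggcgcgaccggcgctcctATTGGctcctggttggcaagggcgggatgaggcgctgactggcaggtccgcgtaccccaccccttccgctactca
Atp5k: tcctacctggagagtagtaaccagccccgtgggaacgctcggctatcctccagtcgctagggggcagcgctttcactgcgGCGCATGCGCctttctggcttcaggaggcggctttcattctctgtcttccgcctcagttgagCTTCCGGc
Atp5g1: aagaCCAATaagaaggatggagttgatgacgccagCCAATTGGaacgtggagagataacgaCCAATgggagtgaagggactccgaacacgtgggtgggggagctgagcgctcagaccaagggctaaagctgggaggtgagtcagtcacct
Uqcr11: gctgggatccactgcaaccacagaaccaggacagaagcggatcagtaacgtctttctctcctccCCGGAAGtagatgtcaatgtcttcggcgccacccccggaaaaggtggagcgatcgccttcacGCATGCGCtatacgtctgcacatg
NRF1 cores stand in Sdhb on the narrow side and in Atp5k (where both strands overlap) and Uqcr11 on the wide side, and ETS cores in Sdhb and Uqcrh on the narrow side and in Atp5e, Atp5k and Uqcr11 on the wide side. Atp5g1 holds 4 CCAAT matches in the printed window, 2 of which overlap on opposite strands, and Sdha holds none of the 4 motifs in it. The same letters were thus found in members that varied little and in members that varied much.

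Over all members, 73 of 92 had a promoter window of 250 bases before to 50 after the start, and these were compared with the windows of 27025 genes. The NRF1 core was in 12 of the 73 (16.4%), against 3.05% of all genes. The ETS core was in 17 (23.3%), against 9.93%. The YY1 core was in 9 (12.3%), against 3.19%, and 7 of these 9 were among the 32 complex I genes with a window. CCAAT was in 32 members (43.8%) against 41.1% of all genes, and the SP1-type GC box GGGCGG in 32 (43.8%) against 38.2%. The TATA box TATAAA was in 7 members (9.59%), below the 15.7% of all genes. The median GC content of the members' windows was 58.3%, against 52.8% for all windows. These are matches of letters, not measured binding.

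The summed level of the 92 genes was highest on day 2 in both genotypes. In control it was 11421 CPM before injury, then 13049, 16910.0 and 12826 CPM over the 3 days. In A20 cKO it was 11146 CPM before injury, then 12295, 14445 and 13115 CPM. Control day 2 was the highest library and A20 cKO naive the lowest, 1.52 times apart. In UMIs per cell, these levels were 32.6, 55.2, 74.6 and 44.1 in the control libraries and 34.0, 42.0, 65.7 and 59.7 in the A20 cKO libraries. The members were detected almost throughout: 87 in all 8 libraries, 90 in at least 1, and Cox7b2 and Cox8c in none. Cox4i1, an early-assembling subunit of complex IV, was the most abundant member and the only one with a mean of at least 500 CPM, 75 members had a mean of at least 50 CPM, and 9 were below 10 CPM.

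**Figure D1:**
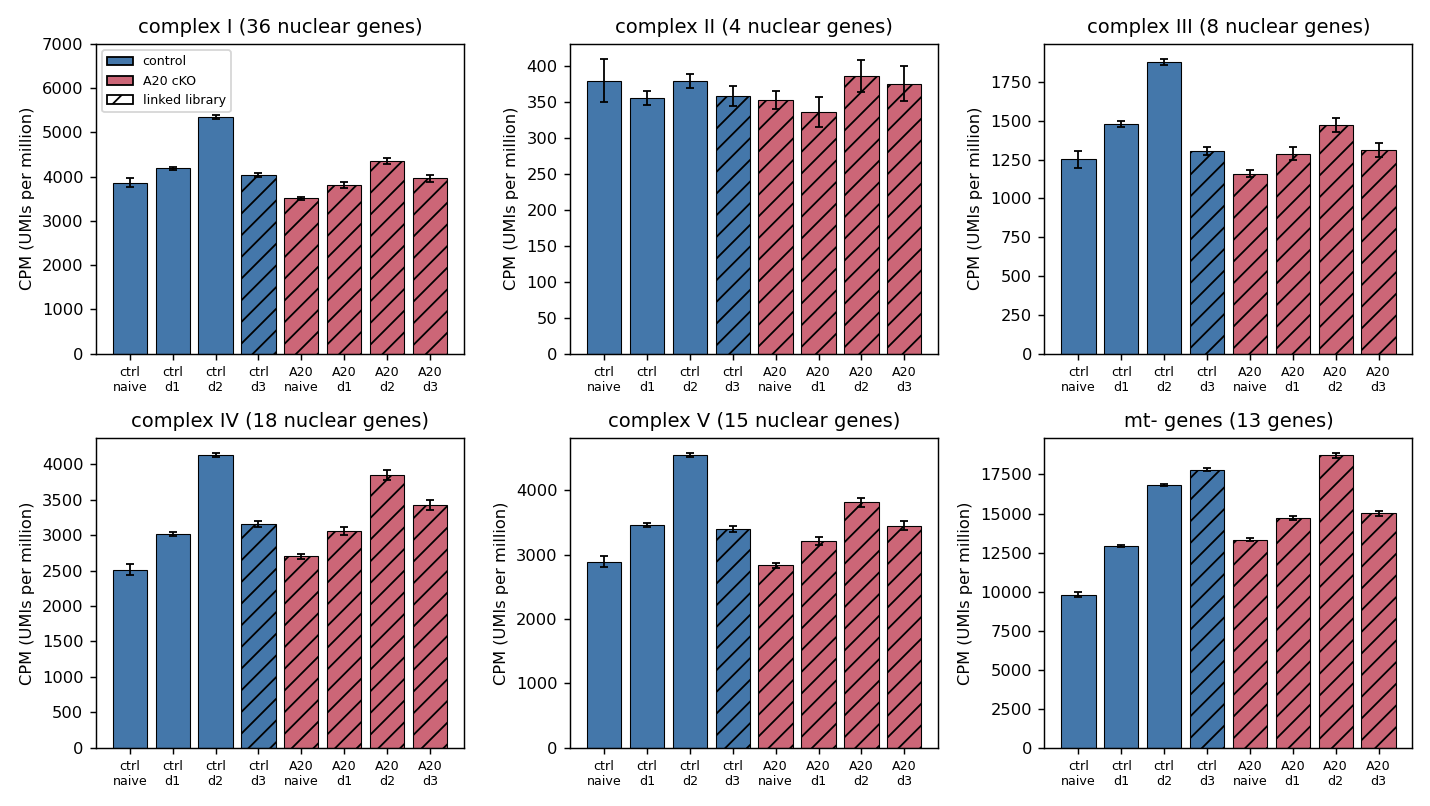
Summed level in CPM of the members of each complex, and of the mt- genes, in the 8 libraries, by day and genotype, with 95% counting intervals. Complexes I, III, IV and V are highest at day 2 in both genotypes, while complex II stays between 336 and 386 CPM throughout.

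Complexes I, III, IV and V were higher on day 2 than in the naive library in both genotypes, and complex II was nearly level. Complex IV, cytochrome c oxidase, summed to 2513, 3017, 4128 and 3158 CPM in the control libraries (naive, then day 1 to day 3) and to 2702, 3058, 3849 and 3430.4 CPM in the A20 cKO libraries. Complex V summed to 2889.9, 3459, 4547 and 3401 CPM, and 2833, 3216, 3814 and 3451 CPM. Both were highest on day 2 and lower on day 3. In control these days lie on different sides of the library division, so that day and side cannot be told apart there. Complex I summed to 3867, 4195, 5349 and 4027 CPM in control, against 3507, 3814, 4357 and 3967 CPM in A20 cKO, and complex III to 1253, 1481, 1879.9 and 1304 CPM and 1158, 1289, 1474 and 1312 CPM. Complex II summed to 379, 355, 379 and 358 CPM, and 353, 336, 386 and 375 CPM. The highest library was 1.64 times the lowest for complex IV, 1.62 for complex III, 1.605 for complex V and 1.53 for complex I, and 1.15 for complex II.

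As log2 ratios of day 2 to naive in control, complex IV stood at 0.72 (0.67 to 0.76), complex V at 0.65 (0.61 to 0.70), complex III at 0.59 (0.52 to 0.65) and complex I at 0.47 (0.43 to 0.51). Complex II stood at -0.00 (-0.12 to 0.12). The order was the same in A20 cKO, with 0.51 (0.48 to 0.54) for complex IV, 0.43 (0.40 to 0.46) for complex V, 0.35 (0.30 to 0.40) for complex III, 0.31 (0.28 to 0.34) for complex I and 0.13 (0.03 to 0.23) for complex II. For all members together the ratios were 0.57 (0.54 to 0.59) and 0.37 (0.36 to 0.39). The interval of complex II did not overlap that of any other complex in either genotype. The median gene itself was not at 0: among genes with at least 100 UMIs in both libraries together, its log2 ratio was -0.13 on control day 1, -0.12 on control day 2, -0.10 on A20 cKO day 3 and -0.12 for A20 cKO day 3 against control day 3, and between -0.07 and 0.07 in the other comparisons. Ratios of single genes are therefore given relative to the median gene of their comparison, and a gene is called past the fold when it lies at least 0.5 log2 above or below it. The 3 comparisons of a genotype share its naive library and are not independent.

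Counted gene by gene, most members were past the fold upward on control day 2. These were 52 of the 84 members with enough UMIs, and none was past it downward, where 19.8% of all 9279 genes with enough UMIs were past the fold upward and 18.2% downward. On A20 cKO day 2 they were 34 of 83 upward and none downward, against 12.2% of all genes upward and 10.8% downward. The members' median was 0.65 in the first and 0.41 in the second. Of the cytosolic ribosomal protein genes, 50 of 83 were past the fold upward and 2 downward on control day 2, with a median of 0.55. On A20 cKO day 2 they were 33 of 83 and 0, with a median of 0.47, and 40 of 83 and 0 on A20 cKO day 3. The higher level on day 2 was thus not particular to the members. By complex on control day 2, 21 of 36 members of complex I were past the fold, 0 of 4 of complex II, 5 of 8 of complex III, 11 of the 12 of complex IV that had enough UMIs, 13 of 15 of complex V and 2 of 9 assembly and related genes. On A20 cKO day 2 the same counts were 13, 0, 3, 10 of 12, 8 and 0 of 8.

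In the count past the fold the other days were closer to the background. On control day 1, 16 of 84 members were past the fold upward and 1 downward, against 17.5% and 19% of all genes, with a members' median of 0.28. On control day 3 they were 5 upward and 0 downward of 82, against 20.9% and 16.4%. On A20 cKO day 1 they were 4 upward and 0 downward of 83, against 8.4% and 8.54%, and on A20 cKO day 3 they were 13 upward and 0 downward of 83, against 10.1% and 8.87%. The upward share on control day 1 lay near the background, that on A20 cKO day 3 above it, and those on control day 3 and A20 cKO day 1 below it. Members above the median gene, whatever the distance, numbered 74 of 84 on control day 1 and 48 of 82 on control day 3. In A20 cKO they numbered 57 of 83 on day 1 and 78 of 83 on day 3, where the members' median was 0.30.

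**Figure D2:**
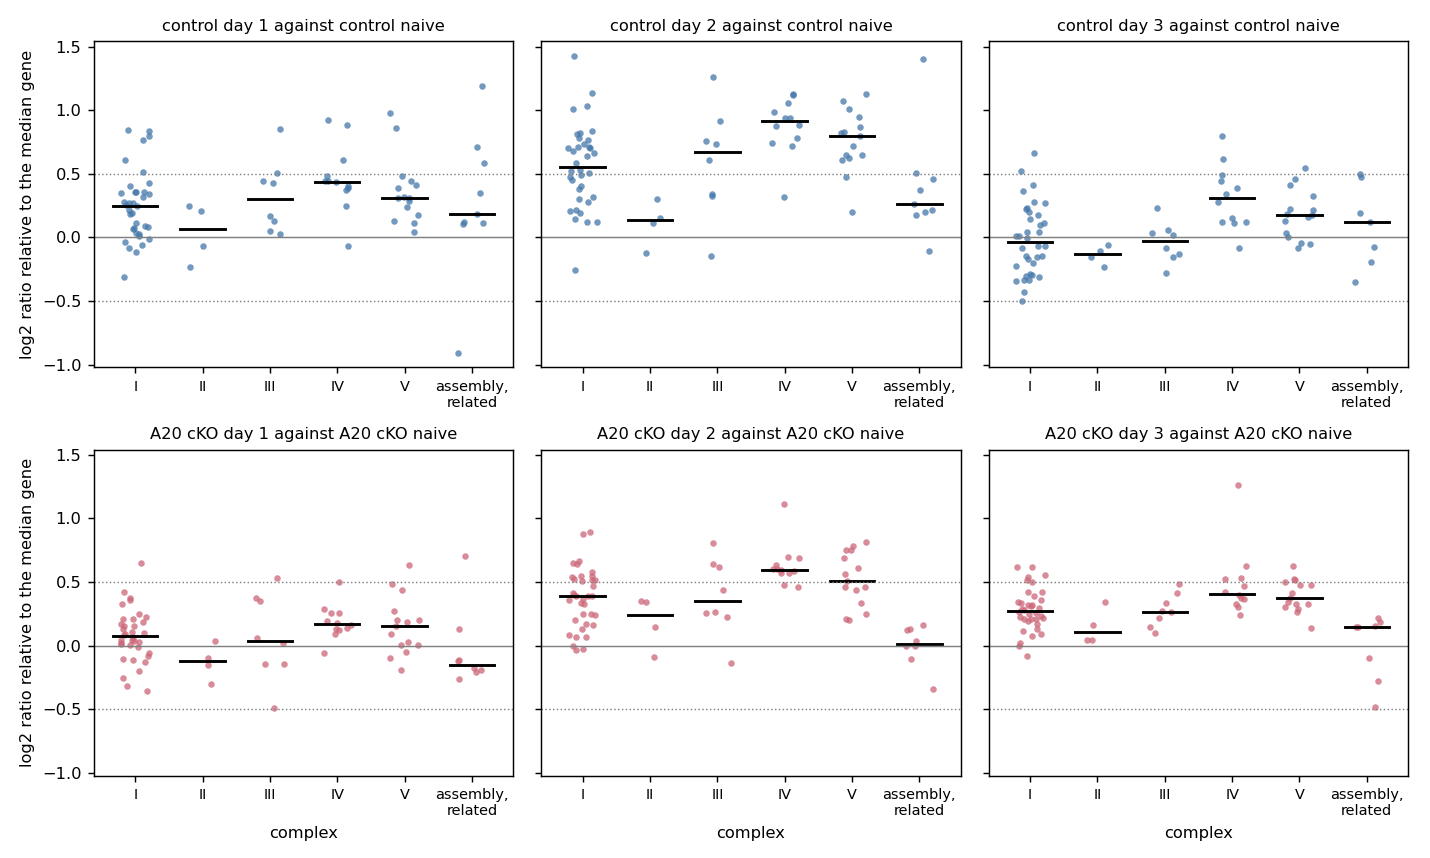
Log2 ratio of each member to the naive library of its genotype at day 1, day 2 and day 3, relative to the median gene of the comparison, grouped by complex. On control day 2, 52 of 84 members lie at or above 0.5 and none at or below -0.5, and the 4 complex II genes lie between -0.13 and 0.30.

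The counts were also taken by depth and by division, whose part in them was not tested. Within each of the 8 libraries, cells with more UMIs had a higher share of OXPHOS transcripts: with the cells of a library ranked by depth and cut into 3 equal groups, the shallowest, middle and deepest group of control day 2 held 15035, 15950.2 and 18291 CPM, and those of A20 cKO day 2 held 11633, 13140 and 16344 CPM. Among cells of 2000 to 5000 UMIs, 46 of 83 members were past the fold upward on control day 2, against 15.7% of all genes, but 6 of 83 on A20 cKO day 2, against 8.64%, and 1 of 83 on A20 cKO day 3, against 9%. The log2 ratio of the total in these cells was 0.45 on control day 2 and 0.18 on A20 cKO day 2. Among cells in which none of 30 core S and G2/M genes was seen, 29 of 74 members were past the fold on control day 2, against 13% of all genes, and 24 of 80 on A20 cKO day 2, against 11.5%. These cell sets were chosen for the counts after the values had been seen. On control day 2 the members' share was thus above the background in each cell set. On A20 cKO day 2 it lay near the background in cells of 2000 to 5000 UMIs, called depth-limited here, where the members' median was 0.21. This window limits depth but does not equalise it between libraries. Over all kept cells the median was 2780 UMIs per cell in control naive and 3911 on control day 2. It was 2824 in A20 cKO naive and 4128 on A20 cKO day 2.

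Complex I oxidises NADH through a hydrophilic arm of core subunits that carry the flavin and the iron-sulphur clusters, and around these sit many small accessory subunits. The accessory subunits had a higher median on day 2 than the core did. The core genes, from Ndufs8 with 636 coding bases to Ndufs1 with 2181, are also longer than most accessory genes. Part and coding length, read further below, thus overlap and were not separated. The 7 core genes had a median relative log2 ratio of 0.28 on control day 2 with 1 past the fold, and the 29 accessory genes a median of 0.67 with 20 past it. On A20 cKO day 2 the medians were 0.24, with 0 past the fold, and 0.41, with 13, where 12.2% of all genes were past it upward. In depth-limited cells the medians were 0.16 and 0.52 on control day 2, with 1 and 17 past the fold. On A20 cKO day 2 they were 0.06 and 0.20 there, with 0 and 2.

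Ndufs1, the largest core subunit, which carries several of the iron-sulphur clusters, measured 35.2, 31.1, 27.4 and 35.4 CPM in the control libraries and 30.5, 26.1, 34.3 and 29.9 CPM in the A20 cKO libraries. Relative to the median gene it stood at -0.25 on control day 2, the lowest of the 84 members with enough UMIs, and at 0.25 on A20 cKO day 2. Ndufv1, the flavin-carrying subunit that binds NADH, was the core gene past the fold, at 34.6, 54.1, 56.6 and 42.8 CPM in control, but it measured 33.9, 35.3, 32.0 and 38.6 CPM in A20 cKO. Ndufs7, the subunit of the last cluster before the quinone, was at 140.1, 156, 177 and 104 CPM and at 105, 119, 118 and 114 CPM, so that control day 3 and every A20 cKO library lay below the other 3 control libraries.

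Among the accessory subunits, Ndufc1 had the highest ratio of any member above 50 CPM on control day 2, at 1.43 (1.12 to 1.76) relative to the median gene. Its levels were 53.1, 84.7, 132 and 88.8 CPM in control, against 69.0, 82.6, 104 and 92.1 CPM in A20 cKO, lowest in the naive library of each genotype and highest on day 2. Ndufa12, an accessory subunit of the matrix arm, measured 88.2, 145, 165 and 108 CPM and 85.9, 138, 151 and 123 CPM, with relative ratios of 0.84, 1.01 and 0.22 in control, against 0.65, 0.89 and 0.62 in A20 cKO over the 3 days. It was thus among the members higher from day 1 on in both genotypes. Ndufb8, whose protein is lost when complex I fails to assemble, measured 135, 149, 204 and 189.7 CPM and 135, 149.6, 202 and 159 CPM. Ndufa1, a small subunit in the membrane encoded on the X chromosome, had another course, with 82.7, 70.0, 95.5 and 125 CPM and 88.9, 90.8, 111 and 122 CPM, and was highest on day 3 in both genotypes.

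Other accessory genes were level or lower. Ndufc2, the partner of Ndufc1 in the membrane arm and the member with the narrowest range among those of at least 100 CPM, measured 208, 189, 209 and 177 CPM in control, against 191, 181, 203 and 178 CPM in A20 cKO. Ndufa9, which contacts the core near the quinone site, measured 107, 100.4, 113 and 83.3 CPM and 83.2, 66.7, 77.5 and 73.2 CPM, with its lowest library on A20 cKO day 1. Among members of at least 50 CPM it was 1 of the 2 lowest on control day 3 (-0.43), A20 cKO day 1 (-0.36) and A20 cKO day 3 (-0.08). Ndufb3, a membrane-arm subunit, was the lowest member of at least 50 CPM on control day 1, at -0.31, with 95.7 CPM in the naive library and 70.8 CPM on day 1. Among these more abundant members, complex I thus held both the one with the narrowest range, Ndufc2, and the one highest on control day 2, its partner Ndufc1.

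Complex II, succinate dehydrogenase, links the chain to the citric acid cycle, and none of its 4 genes was past the fold in any of the 8 comparisons. Sdha, the flavoprotein that oxidises succinate, measured 102, 111, 102 and 103 CPM in control, against 107, 89.2, 95.6 and 103 CPM in A20 cKO. Sdhb, the iron-sulphur subunit, measured 162, 142, 167 and 145 CPM and 136, 143, 164 and 161 CPM. The membrane anchors Sdhc and Sdhd measured 43.8, 46.5, 50.1 and 43.0 CPM and 71.0, 55.5, 60.2 and 67.2 CPM in control. In A20 cKO the anchors measured 39.0, 36.0, 40.9 and 37.4 CPM and 70.9, 68.0, 85.7 and 74.0 CPM. Sdha and Sdhb were among the 4 members with the narrowest ranges over the 8 libraries, and their printed promoters share no motif of the 4 searched. Sdhd was among the 2 lowest members of at least 50 CPM on control day 1 (-0.23) and day 2 (-0.13).

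Complex III passes electrons from ubiquinol to cytochrome c, and its 5 small subunits had a higher median on day 2 than its 2 large core proteins. The core proteins have 1359 and 1440 coding bases and the small subunits 168 to 333, so that part and length overlap here as well. The medians were 0.76 against 0.23 on control day 2 and 0.62 against 0.06 on A20 cKO day 2. The single genes overlapped: Uqcrh, the hinge protein beside cytochrome c1, stood at 0.34 and 0.23, below the core protein Uqcrc1 at 0.61 and 0.25. Uqcr11, one of the smallest, had the widest range of all members of at least 100 CPM, 1.30 on the log2 scale from A20 cKO naive to control day 2. It measured 165, 273, 366 and 204 CPM in control, against 148, 198, 216 and 185 CPM in A20 cKO. Control day 1 and day 2 stood above every other library. Uqcrq, which binds next to cytochrome b, measured 176, 229, 306 and 193 CPM and 147, 218, 244 and 192 CPM, with relative ratios of 0.91 on control day 2 and 0.80 on A20 cKO day 2. Uqcrfs1, the Rieske iron-sulphur protein, measured 102, 106, 119 and 109 CPM and 96.5, 100.4, 124 and 109 CPM. The 2 core proteins, which face the matrix, diverged: Uqcrc1 measured 139, 173, 196 and 133 CPM in control, against 114, 106, 129 and 114 CPM in A20 cKO, while Uqcrc2 measured 83.9, 78.5, 70.0 and 72.7 CPM and 78.9, 57.5, 68.2 and 88.5 CPM. Uqcrc2 was the lowest member of at least 50 CPM on control day 2 (-0.15), A20 cKO day 1 (-0.49) and A20 cKO day 2 (-0.14).

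Complex IV had the highest day 2 ratios, and nearly all of its detected nuclear subunits took part. Cox4i1 measured 441, 565, 751 and 560.1 CPM in control, against 489.8, 483, 641 and 613 CPM in A20 cKO. Cox5a, which binds beside Cox4i1 early in assembly, measured 104, 176, 211 and 168 CPM and 128, 150.2, 183 and 147 CPM, with relative ratios of 0.88, 1.13 and 0.62 over the 3 days in control. Cox5b, which holds a zinc ion, measured 141, 197, 283 and 193 CPM and 160.4, 197, 246 and 231 CPM. In each of the 3 genes day 2 was the highest library of both genotypes. Cox8a measured 301, 361, 509 and 401 CPM and 351, 396, 495 and 453 CPM, and Cox7a2 measured 162, 201, 287 and 189 CPM and 163, 199.8, 235 and 218 CPM. Ndufa4, named for complex I but a subunit of complex IV, measured 209, 259, 382 and 298 CPM and 209, 262, 299.6 and 252 CPM, in step with the rest of complex IV. Cox7c was the complex IV gene with enough UMIs that was not past the fold on control day 2, at 0.32, with 344, 300.5, 396 and 340.5 CPM in control.

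Complex V splits into a catalytic head in the matrix and a membrane part with its stalks. Atp5b, the catalytic beta subunit, had the highest ratio on control day 1 among members of at least 50 CPM, at 0.98 (0.83 to 1.14) relative to the median gene. It measured 221, 400.1, 355 and 271 CPM in control, against 261, 259, 285 and 309 CPM in A20 cKO, with its highest library on day 1 in control and on day 3 in A20 cKO. Atp5a1, the alpha subunit, measured 232, 264, 246 and 250.3 CPM and 208, 187, 235 and 214 CPM. The 2 subunits that alternate around the head were thus unlike, and Atp5a1 stayed near level. Atp5e, the epsilon subunit of the central stalk, measured 319.7, 301, 486 and 316 CPM and 231, 320.0, 369 and 299 CPM. Atp5l, a membrane subunit, measured 214, 275, 399 and 309.7 CPM and 278, 267, 376 and 361 CPM. All 10 genes of the membrane part and peripheral stalk were past the fold on control day 2, with a median of 0.83, and 3 of 5 of the head, with a median of 0.72. On A20 cKO day 2 the counts were 7 of 10, with a median of 0.59, and 1 of 5, with a median of 0.25. In depth-limited cells they were 6 of 10 and 3 of 5 on control day 2, and 2 of 10 and 1 of 5 on A20 cKO day 2.

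Across the complexes, members with a short coding sequence were past the fold on day 2 more often than members with a long one. By coding length, 66 members had under 600 bases and 26 had 600 or more, from 156 bases to the 2181 bases of Ndufs1. The limit of 600 bases and the division of complexes into parts were chosen after the values had been seen. On control day 2, 47 of 59 short members with enough UMIs were past the fold upward (79.7%, median 0.73), and 5 of 25 long members (20%, median 0.28). On A20 cKO day 2 these were 32 of 59 (54.2%, median 0.51) and 2 of 24 (8.33%, median 0.20). The same order was seen outside the pathway on day 2. Of other genes, 33.8% of 1219 short ones and 17.4% of 7707 long ones were past the fold on control day 2, and 20.1% and 10.3% on A20 cKO day 2. Among other genes the order was reversed in the comparisons to control naive across the sides. There 11.9% of short and 22.5% of long ones were past the fold upward on control day 3. Between the naive libraries these were 9.54% and 22.4%. In all kept cells on day 2, short members stood above other short genes in the share past the fold. Long members were near other long genes in it, although their median on control day 2 was 0.28 against -0.04. In depth-limited cells on control day 2 the shares were 69.5% of short and 20.8% of long members, against 27.2% and 13.4% of other genes. In depth-limited cells on A20 cKO day 2 they were 10.2% of short and 0% of long members, against 12.8% and 7.56% of other genes. Short members thus no longer stood above other short genes there. The 3′ tags are not counted per length, so these are differences between libraries and not levels compared between genes.

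The 11 assembly factors and related genes stayed closer to level, at 519.6, 541, 627 and 578 CPM in control, against 592, 582, 565 and 579.6 CPM in A20 cKO. Ndufaf4, a complex I assembly factor, was highest on day 1 in both genotypes, at 49.99, 75.4, 60.2 and 50.1 CPM in control, against 59.4, 99.4, 56.4 and 64.5 CPM in A20 cKO. Its day 1 ratios relative to the median gene were 0.71 (0.39 to 1.07) and 0.70 (0.49 to 0.91), and the second was the highest of any member of at least 50 CPM in that comparison. Atp5sl, which despite its name is an assembly factor of complex I, was the member past the fold downward on control day 1, at 55.5 CPM naive and 27.2 CPM on day 1, a relative ratio of -0.91 (-1.23 to -0.55). It measured 47.8 and 63.5 CPM on control days 2 and 3, and 63.1, 53.8, 61.3 and 48.4 CPM in A20 cKO. Atp5sl, the 5 members past the fold on control day 3 (Ndufa1, Ndufc1, Cox5a, Cox6a2 and Atp5g3) and the 4 on A20 cKO day 1 (Ndufa12, Uqcrq, Atp5g1 and Ndufaf4) are named because the counts were small, after their values had been seen. Cox7a2l, counted here among the related genes, measured 272, 284, 356 and 327 CPM and 326, 289.6, 309 and 338 CPM.

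Other genes of the pathway that the symbols did not take are read against the same shares of all genes, 19.8% upward and 18.2% downward on control day 2 and 12.2% and 10.8% on A20 cKO day 2. Of 9 electron carriers and late-named subunits, 5 were past the fold upward on control day 2 and 6 on A20 cKO day 2, and none downward in either. Cycs, cytochrome c itself, measured 85.2, 160.0, 166 and 137 CPM in control, against 117, 203, 197 and 175 CPM in A20 cKO, lowest in both naive libraries. Of 14 enzymes of the citric acid cycle, 4 were past the fold upward and 0 downward on control day 2, and 2 and 1 on A20 cKO day 2. Of the further assembly factors with enough UMIs, 9 of 35 were past it upward and 3 downward on control day 2, and 2 and 3 of 33 on A20 cKO day 2. Of the regulators of mitochondrial transcription, 0 of 11 were past it upward and 3 downward on control day 2, with a median of -0.38, and 1 and 1 of 12 on A20 cKO day 2. The assembly factors' upward share on control day 2 and that of the citric acid cycle on A20 cKO day 2 lay near the background. The citric acid cycle list ranged from 668 to 826 CPM and the regulators from 361 to 436 CPM over the libraries, a highest over lowest of 1.24 and 1.21.

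Complex IV has several subunits with tissue isoforms, and Cox6a2 was the isoform whose level stood apart by genotype in these libraries. Cox6a1 and Cox6a2 are the ubiquitous form and the heart and skeletal muscle form of the same subunit. Cox6a2 (ENSMUSG00000030785, GENCODE M21 on GRCm38, chr7:128205435-128206387, minus strand) measured 12.96, 23.0, 25.5 and 24.2 CPM in the control libraries, from 21, 323, 403 and 176 UMIs. It measured 55.2, 79.9, 114 and 124 CPM in the A20 cKO libraries, from 492, 242, 345 and 314 UMIs. Every A20 cKO library stood above every control library, and in A20 cKO the naive library was the lowest, while the intervals of day 2 (102 to 126 CPM) and day 3 (110.3 to 138 CPM) overlapped. Cox6a1 measured 243, 264, 369 and 277 CPM and 237, 265, 348 and 262 CPM, with no such division. The share of Cox6a2 in the UMIs of the pair was 5.06% (3.2 to 7.6), 8.01% (7.2 to 8.9), 6.46% (5.9 to 7.1) and 8.02% (6.9 to 9.2) in control, and 18.9% (17.4 to 20.5), 23.2% (20.6 to 25.8), 24.6% (22.4 to 26.9) and 32.1% (29.2 to 35.1) in A20 cKO.

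**Figure D3:**
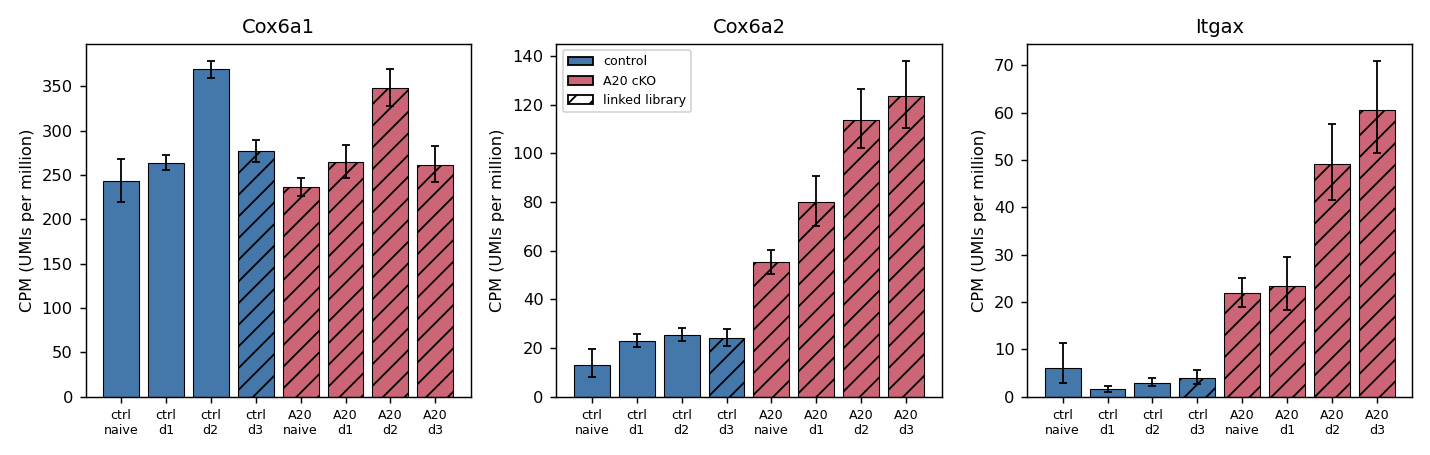
Level of Cox6a1, of Cox6a2 and of Itgax, a gene near Cox6a2, in CPM in the 8 libraries with 95% counting intervals. The share of Cox6a2 in the summed UMIs of Cox6a1 and Cox6a2, which is not drawn, is 5.06% to 8.02% in the 4 control libraries. It is 18.9% to 32.1% in the 4 A20 cKO libraries.

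The comparison on 1 side of the library division was that of day 3, where both libraries were linked. There the log2 ratio of Cox6a2 in A20 cKO to control was 2.35 (2.08 to 2.63) before centring and 2.47 relative to the median gene, the highest of any member. It was 2.24 in cells of 2000 to 5000 UMIs, 3.03 in cells without a core S or G2/M gene, 2.35 in cells whose barcode occurred in 1 library only and 2.35 in cells with at least 3 of the 6 microglia markers. Between the naive libraries, which lie on both sides, it was 2.06 (1.46 to 2.79). Cells with at least 3 microglia markers held 100% of the Cox6a2 UMIs in each control library and 98.1% to 99.2% in the A20 cKO libraries, but they also held 97.7% to 100% of all UMIs, so that these shares do not place Cox6a2 in one cell type.

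Cox6a2 lies within the span of Itgad, an integrin gene on the opposite strand (chr7:128154376-128223816), and near Itgax (chr7:128129547-128150657, plus strand), the gene of CD11c, a marker of activated microglia. Whether counting used strand is not given in the sources used here. Itgad had 1 to 8 UMIs per library and at most 0.787 CPM. Itgax measured 6.17, 1.56, 2.97 and 3.98 CPM in control, against 21.9, 23.4, 49.1 and 60.6 CPM in A20 cKO, so that it too was higher in every A20 cKO library. Armc5, which lies nearer to Cox6a2 than Itgax does, measured 38.0, 39.6, 49.8 and 57.4 CPM in A20 cKO and up to 43.7 CPM in control, on day 1, so that the genotypes overlapped. Itgam, the gene of CD11b next to Itgax, measured 376, 314, 337 and 683 CPM and 454, 596, 597 and 522 CPM, highest on control day 3. Tgfb1i1, beyond Armc5, measured 0 to 1.51 CPM in control, against 1.68 to 6.69 CPM in A20 cKO, from at most 21 UMIs per library. These neighbours were looked up after the values of Cox6a2 had been seen, and their part in its level was not tested.

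The other tissue isoforms were nearly silent. Cox7a1, the muscle form of Cox7a2, measured between 0.285 and 1.58 CPM, Cox4i2, the form tied to low oxygen, between 0 and 1.65 CPM, and Cox8b, the muscle form of Cox8a, had 1 UMI in all, on A20 cKO day 2. Cox6b2, the testis form of Cox6b1, took between 0.679% and 2.84% of the UMIs of its pair. Ndufa4l2 took at most 0.126% of its pair. Cox4i1, Cox6b1, Cox7a2, Cox7b, Cox8a and Ndufa4 thus supplied nearly all UMIs of their pairs in every library.

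The ring of complex V that carries protons is built from a single protein made by 3 genes, Atp5g1, Atp5g2 and Atp5g3, which differ in their import sequence. Atp5g1 measured 161, 268, 326 and 196 CPM in control, against 142, 226, 227 and 177 CPM in A20 cKO. Atp5g2 measured 237, 265, 337 and 278 CPM and 240.5, 281, 315 and 318 CPM, and Atp5g3 measured 67.3, 67.0, 97.8 and 104 CPM and 79.2, 114, 132 and 114 CPM. Atp5g1 took 34.6%, 44.7%, 42.9% and 34.0% of the 3 genes' UMIs in the control libraries and 30.7%, 36.3%, 33.7% and 29.0% in the A20 cKO libraries. Its share was highest on control day 1 and day 2 and lowest on A20 cKO day 3. In A20 cKO, Atp5g3 was the second highest member of at least 50 CPM on day 3, at 0.63 relative to the median gene, after Cox6a2 at 1.26.

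Counts of some members may hold reads of near-identical copies. By alignment of the last 300 bases of each transcript, 19 of 92 members had a copy elsewhere of at least 97% identity over at least 100 bases, among them Uqcr11, Atp5g1, Atp5g2, Atp5l, Atp5o, Cox5b, Cox6c, Cox7c and Ndufa12, and 6 of these copies had rows of their own in the count table. On the same strand another gene model covered the last 200 bases of 5 members, among them Cox4i1, Ndufa13 and Ndufb8, and on the opposite strand of 13, among them Cox6a2, Ndufs1 and Uqcrc2. The levels of these genes are uncertain to that extent.

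The level of the mt- genes differed between the sides of the library division as well as between days. The linked libraries are those of A20 cKO and control day 3, and the others are all control. Side, genotype and day can therefore not be told apart here. They summed to 9813, 12912, 16847 and 17814 CPM in control, against 13328, 14703, 18725 and 15020.2 CPM in A20 cKO. Nuclear UMIs per mt- UMI were 1.16, 1.01 and 1.00 in control naive, day 1 and day 2, 0.72 on control day 3, and 0.84, 0.84, 0.77 and 0.87 in A20 cKO. All 5 linked libraries thus lay below 1 and the other 3 at or above it. For complex I alone, nuclear UMIs per UMI of the mt-Nd genes were 1.42, 1.19, 1.17 and 0.76 in control, against 0.93, 0.87, 0.83 and 1.00 in A20 cKO, and for complex IV per UMI of the mt-Co genes 0.64, 0.57, 0.60 and 0.46, and 0.51, 0.57, 0.53 and 0.56. Complex IV overlapped between the sides, and complex I did not.

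**Figure D4:**
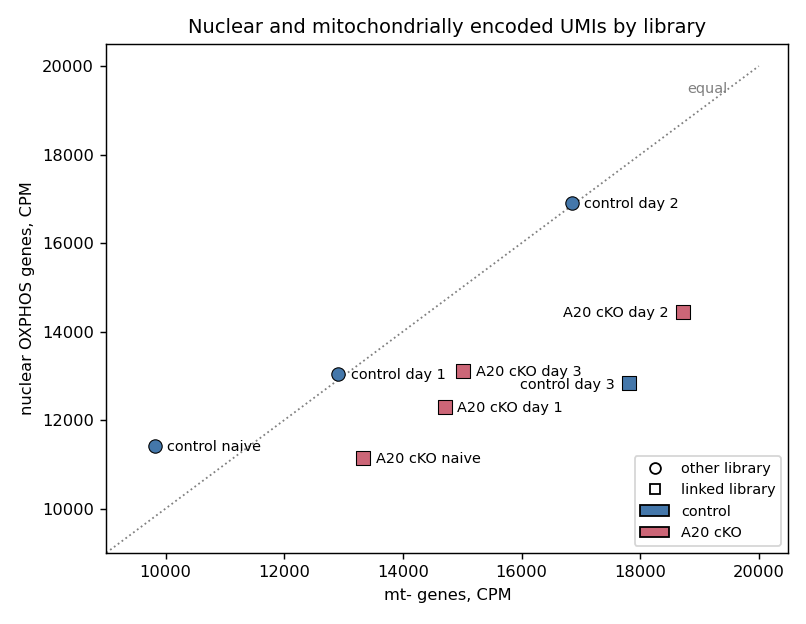
Summed CPM of the 92 nuclear members (vertical axis) against that of the 13 mt- genes (horizontal axis), 1 point per library, with colour for genotype, squares for the linked libraries and a dotted line where both are equal. Control naive, day 1 and day 2 lie on or above the line, and the 5 linked libraries lie below it, at 0.72 to 0.87 nuclear UMIs per mt- UMI.

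Single mt- genes did not move as 1 group. mt-Nd5, a proton-pumping subunit of complex I, measured 168, 154, 200.2 and 639.7 CPM in control, against 401, 429.9, 531 and 389.9 CPM in A20 cKO. mt-Atp8, whose reading frame overlaps that of mt-Atp6, measured 313, 93.1, 105 and 549 CPM and 452, 652, 713 and 532 CPM. Both were higher in every linked library than in any other. mt-Co3 measured 1585, 2450.2, 3041 and 2611 CPM and 1883, 1888, 2537 and 2113 CPM, and mt-Nd1 measured 1037, 1670.0, 2319 and 1828 CPM and 1186, 1555, 1937 and 1320.2 CPM, so that these were highest on day 2 in both genotypes, as the nuclear genes of their complexes were.

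Of the 82 members with at least 800 UMIs in all, 1 was higher in every linked library than in any other library, Atp5c1, the gamma subunit of complex V, and 13 (15.9%) were lower, against 21.9% of 7402 genes higher and 12.2% lower. Of the 13 lower members 9 were complex I genes, among them Ndufs3, Ndufs7, Ndufs8 and Ndufv2 of the core. Of the mt- genes 5 of 13 were higher. The markers of other cells, given above, stood higher in the same libraries, and their part in these values was not tested. Here too side cannot be told apart from genotype and day.

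Between genotypes, the members' levels were close on the same side of that division. On day 3, A20 cKO to control, the total had a log2 ratio of 0.03 (0.01 to 0.05), complex IV 0.12 (0.08 to 0.15), complex I -0.02 (-0.05 to 0.01) and the mt- genes -0.25 (-0.26 to -0.23). In cells of 2000 to 5000 UMIs the ratio of the total was -0.02. In all kept cells 2 of 83 members were past the fold upward on day 3, Cox6a2 and the complex I assembly factor Ndufaf5, which had under 10 CPM, and none downward, against 9.66% and 8.98% of all genes. Ndufaf4 had the second highest ratio among members of at least 50 CPM, at 0.48, and Atp5sl (-0.27) and Ndufv2 (-0.23) the lowest. Between the naive libraries, across the division, the total was at -0.04 (-0.06 to -0.01). There 2 members were past the fold upward, Cox6a2 and the complex I assembly factor Ndufaf2, and 3 downward, Ndufs8 at -0.64 (-0.86 to -0.41), Ndufv2 at -0.56 (-0.82 to -0.29) and Atp5e at -0.52, against 20.4% and 14.2% of all genes. Of members of at least 50 CPM other than Cox6a2, whose mean was below that, Atp5c1 (0.34) and Atp5l (0.33) were the highest there. In these 2 comparisons few members other than Cox6a2 thus differed by the fold. On day 1 and day 2 the genotypes lie on both sides of the division and no ratio between them was taken, and some levels lay further apart there, such as those of Uqcr11 on day 2, at 366 CPM in control, against 216 CPM in A20 cKO.

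Cells in division held a higher summed share of the members' transcripts, while the count of members past the fold differed by library. Cells with at least 3 of 18 core G2/M genes numbered 1 and 8 in control naive and day 1, 1081 and 234 on control day 2 and day 3, and 92, 33, 106 and 49 in the A20 cKO libraries. Against cells of the same library with no core cycle gene, the log2 ratio of the members' total was 0.24 (0.21 to 0.26) on control day 2 and 0.42 (0.40 to 0.45) on control day 3. It was 0.38, 0.26, 0.27 and 0.39 in the 4 A20 cKO libraries. Gene by gene, 4 of 81 members were past the fold upward on control day 2, against 13.7% of all genes. On control day 3 they were 28 of 79, against 14.1%. In A20 cKO they were 35 of 80, 18 of 63, 15 of 70 and 25 of 61, against 17.8%, 14.8%, 17.6% and 16.8%. The ratios of the total were also taken within limits of depth. In cells of 3000 to 6000 UMIs these ratios were 0.10 (0.06 to 0.14), 0.25 (0.22 to 0.29), 0.25 (0.20 to 0.29), 0.08 (-0.01 to 0.16), 0.14 (0.07 to 0.20) and 0.38 (0.30 to 0.45). The G2/M cells were deeper than the others also within these limits, for instance with medians of 4683.5 against 3651.5 UMIs on control day 2. The mt- genes had ratios of 0.20, 0.11, 0.01, -0.04, -0.12 and 0.01 in the same cells of 3000 to 6000 UMIs. In the A20 cKO libraries they were thus near 0 in 3 and lower on day 2, at -0.12 (-0.18 to -0.05). The interval of the nuclear members lay above 0 in all but 1. Cells were not replicates, and no test was made of these ratios.

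**Figure D5:**
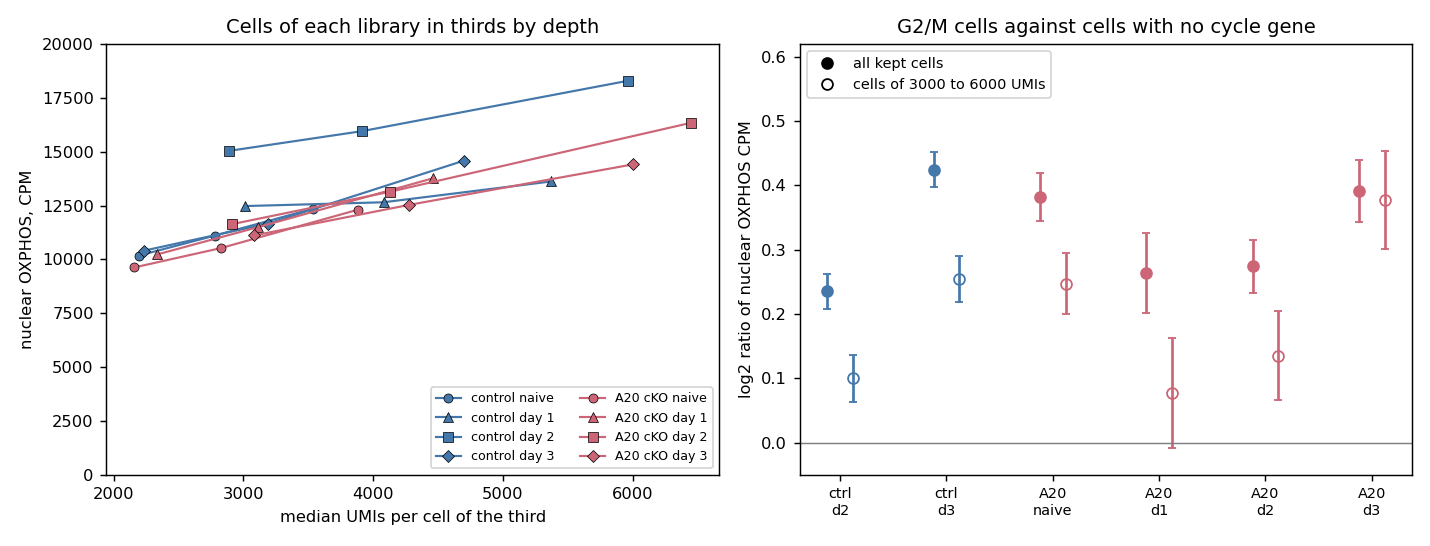
Left, summed CPM of the 92 members in the shallowest, middle and deepest of 3 equal groups of cells of each library, against the median UMIs per cell of the group. Right, log2 ratio of the members' total in G2/M cells to cells with no core cycle gene, in all kept cells (filled) and in cells of 3000 to 6000 UMIs (open), with 95% counting intervals. The open ratios lie between 0.08 and 0.38.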

How the data were processed

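Microglia of 8 libraries, 1 per group, were measured by droplet single-cell RNA sequencing. The deposited values are UMI counts per gene and cell, made by the authors with Cell Ranger 2.1.1 on mm10 according to the submitters' processing notes. The labels and the study's methods name different versions of the kit. The sources used here do not state the annotation or whether counting used strand. No doublet removal is stated and no caller was run.

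UMI counts were summed per gene over kept cells (at least 1000 UMIs and 500 genes, at most 10% mt- UMIs) and divided by the library's UMIs to give CPM. Sums carry exact Poisson intervals, shares exact binomial (Clopper-Pearson) intervals and ratios exact conditional intervals, all at 95% and for counting error only. Log2 ratios of single genes had 0.5 UMIs added, were taken where both libraries together held at least 100 UMIs of the gene, and were centred on the median gene. Ratios of sums had nothing added. With 1 library per group no significance test was possible. Named genes were 23 fixed members, the paralogues, the 2 highest and 2 lowest of at least 50 CPM in each comparison, and the 4 widest and narrowest ranges of at least 100 CPM. Some genes of these lists are not reported here. Members and lists were chosen with earlier results of these data known. Alternatives were another denominator, cell filter, depth window, cycle state, fold, count minimum and centring. Copies were sought with blastn 2.17.0 in GENCODE M21 transcripts, promoters were RefSeq windows matched by symbol, and coding lengths were the longest coding sequence of a gene in GENCODE M21. The script that computes ratios was tested on simulated data. Python 3.11.15, numpy 2.4.6, scipy 1.17.1 and pandas 2.3.3 were used.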

Additional observations from a re-analysis of the deposited data

Results flagged for a closer look

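Complex II lay on opposite sides of the median gene on day 3 against naive in the 2 genotypes. Relative to the median gene, its summed log2 ratio was -0.15 (-0.28 to -0.02) in control and 0.19 (0.08 to 0.29) in A20 cKO, from 379 and 358 CPM and from 353 and 375 CPM. Before centring the ratios were -0.08 (-0.21 to 0.05) and 0.09 (-0.02 to 0.19), and both intervals hold 0, so that the opposite directions past counting error rest on the shift of the median gene, 0.07 and -0.10. The difference itself was not tested, since each group is 1 library, and control day 3 and control naive lie on both sides of the division between libraries.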

How the results depend on the processing

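The log2 ratio of the members' total to naive, taken before centring, kept its direction under each alternative run. On control days 1, 2 and 3 and A20 cKO days 1, 2 and 3 it was 0.14, 0.45, 0.069, 0.085, 0.18 and 0.10 in cells of 2000 to 5000 UMIs. In cells with no core S or G2/M gene it was 0.17, 0.45 and 0.012 on the control days and 0.32 and 0.16 on A20 cKO days 2 and 3, and -0.077 between the naive libraries. Without mt- and ribosomal protein genes in the denominator it was 0.62 and 0.20 on control days 2 and 3 and 0.17, 0.43 and 0.28 on the A20 cKO days. As a mean over cells it was 0.13 on control day 3 and 0.35 on A20 cKO day 2, with the stricter cell filter 0.36 and 0.22 on A20 cKO days 2 and 3, and with barcodes of 1 library 0.11 on A20 cKO day 1. A20 cKO day 3 against control day 3 turned to -0.020 in cells of 2000 to 5000 UMIs and was 0.067, 0.060, 0.014 and 0.071 under the denominator, mean, stricter filter and cycle alternatives. Keeping all barcodes moved none of these ratios beyond its counting interval. Relative to the median gene the direction was not kept throughout. On control day 3 in cells of 2000 to 5000 UMIs, the median was -0.006 for short members and -0.17 for long members. In all kept cells these medians were 0.12 and -0.07.

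Counts of members past the fold depended on the settings, and the values that moved by over 1.5 times were these. With a fold of 0.3 log2 they were, upward and downward, 41 and 2 on control day 1, 16 and 8 on control day 3, 13 and 3, 53 and 1, and 42 and 1 on the A20 cKO days, 7 and 18 between the naive libraries and 17 and 1 between the day 3 libraries. With at least 1 UMI they were 41 and 5 on control day 1, 2 downward on control day 2, 14 and 2 on control day 3, 8 and 2 on A20 cKO day 1, 7 and 1 on A20 cKO day 3, 5 upward between the naive libraries and 4 and 1 between the day 3 libraries. With at least 500 UMIs they were 9 and 0 on control day 1, 2 and 1 on control day 3, 1 and 6 between the naive libraries and 0 upward between the day 3 libraries. Without centring they were 10 upward on control day 3, 5 and 1 on A20 cKO day 3 and 1 downward between the day 3 libraries. In cells of 2000 to 5000 UMIs they were 3 and 2 on control day 3, 1 downward on A20 cKO day 1, 6 upward on A20 cKO day 2, 1 and 1 on A20 cKO day 3, 5 downward between the naive libraries and 1 and 1 between the day 3 libraries. In cells with no core cycle gene they were 29 upward on control day 2, 0 and 6 on control day 3, 1 downward on A20 cKO day 3, 1 and 8 between the naive libraries and 7 and 1 between the day 3 libraries. The last 2 cell sets were added for these counts after the data had been seen. The share of all genes past the fold was not taken at the fold of 0.3 log2, at the other count minimums or without centring. For the last 2 cell sets it was taken in some comparisons only, given above. The counts without such a share show how far the number depends on the setting and are not read against a background. The cause of these differences was not tested. No paired analysis was possible because each group is 1 library. Control naive, with 1620481 UMIs, limits the precision of every control ratio.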
